A study of Rattus norvegicus with 20 samples.

Results

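Whole blood of rats with surgically induced reflux esophagitis that received no drug was compared, gene by gene, with whole blood of sham-operated rats. The comparison rests on 8 of the study's 20 arrays, 4 titled untreated and 4 titled sham, and these titles alone put an array into its group. All animals were Wistar rats, an outbred laboratory strain, and the design text gives 4 animals for each group. The untreated group carried the esophagitis surgery and no drug, and the sham group carried a sham operation and no drug. Per the design text, drug treatment went on for 10 days after surgery and the rats were then killed. Age and sex are not given in the labels. The other 12 arrays came from operated rats given omeprazole at 30 mg/kg, an inhibitor of the gastric proton pump, or the herbal preparation STW5 at 0.5 or 2 ml/kg. These drugs were also given for 7 days before surgery. Here the 12 arrays entered the estimate of the spread and the choice of the probes and genes tested, but not the change itself. Blood was drawn into RNA-stabilising tubes, so the arrays measured RNA of all blood cells together. In such bulk blood a lower signal of a cell type's genes can come from fewer cells or from less RNA per cell, and these cannot be told apart.

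In reflux esophagitis gastric or duodenal content injures the lining of the esophagus, and leukocytes enter the wall. Blood RNA reads this at a distance. Neutrophils and monocytes leave the bone marrow under inflammatory signals, and neutrophils also under glucocorticoids. Lymphocytes leave the circulation under glucocorticoids, and reticulocytes, the youngest red cells, still carry much RNA for heme and membrane proteins. A blood profile therefore mixes shifts in cell numbers with changes of transcription inside cells, such as the immediate early genes that respond to stress within minutes.

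Each gene was read by a 60-base probe, and the probes behind the main results are shown here because they fix which stretch of each RNA was measured. Timmdc1 is the gene that passed the test. Jun, Prok2 and Socs3 stand for genes high on 3 untreated arrays, and Itgam, Lck and Klf1 for neutrophils, T cells and red cells. C1qa stands for genes high on untreated arrays 2 and 4 only. Letters are lower case, and capitals mark a stop codon at the end of a probe whose reading frame is open up to it. Coordinates are those of the scanner files, build rn4.
Timmdc1: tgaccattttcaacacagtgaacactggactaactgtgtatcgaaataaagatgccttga
Jun: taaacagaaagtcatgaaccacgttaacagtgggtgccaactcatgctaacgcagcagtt
Prok2: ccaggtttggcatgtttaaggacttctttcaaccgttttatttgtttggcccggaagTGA
Socs3: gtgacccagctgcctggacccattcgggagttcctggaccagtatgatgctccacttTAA
Itgam: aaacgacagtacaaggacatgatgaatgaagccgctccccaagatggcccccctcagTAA
Lck: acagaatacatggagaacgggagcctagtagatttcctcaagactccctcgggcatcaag
Klf1: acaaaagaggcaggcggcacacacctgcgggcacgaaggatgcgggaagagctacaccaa
C1qa: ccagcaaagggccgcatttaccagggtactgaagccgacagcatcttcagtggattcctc
The Timmdc1 probe was placed at chr11:64015746-64017204 on the plus strand, a span of 1459 bases for 60 bases of probe, and the Lck probe at chr5:148713169-148715276 on the minus strand, a span of 2108 bases. Both probes thus cross an intron. The others were placed in 1 block each: Jun at chr5:115359410-115359469, Prok2 at chr4:134561300-134561359, Socs3 at chr10:107958636-107958695, C1qa at chr5:155662578-155662637 and Klf1 at chr19:24908511-24908570, all on the minus strand, and Itgam at chr1:187385524-187385583 on the plus strand.

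The level of a gene is the log2 of its processed intensity relative to the 75th percentile of the same array, so that a level of 0 lies at that percentile. The 75th percentile was 97.8 to 173 intensity units on the sham arrays. On untreated arrays 1 to 4 it was 124, 166, 266 and 222. Between 45.6% and 50.3% of the probes were well above background on the sham arrays, and 47.3%, 52.6%, 55.9% and 54.2% on the untreated ones. All 8 arrays lay on 1 slide, with the sham arrays in its first row and the untreated arrays in its second row, so that row and group cannot be told apart. The arrays of drug-treated rats, which entered the estimate of the spread, lay on other slides. Of the 30367 probes 17236 were tested, for 15232 genes, and log2 changes had a median standard error of 0.35. Each standard error rests on a spread shared by all 5 groups. Where the untreated arrays spread more widely than that, it understates the uncertainty of this comparison. C4a, for example, had standard deviations of 0.33 in sham and 4.73 in untreated, and a standard error of 1.43. The number of arrays limits the precision.

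Untreated array 1 lay with the sham arrays. Its levels differed from those of sham array 3 by a median of 0.14 on the log2 scale over all genes, less than any of the 6 pairs of sham arrays, whose median differences ran from 0.25 to 0.41. Arrays 2, 3 and 4 of the untreated group differed from the sham arrays by 0.50 to 0.94 and from each other by 0.54 to 0.92. Correlations across genes, which are not independent replicates, tell the same: untreated array 1 correlated with the sham arrays at 0.977 to 0.992, array 2 at 0.922 to 0.933, array 3 at 0.896 to 0.921 and array 4 at 0.932 to 0.946. The cause was not tested, and no gene on the array can check the surgery. Values without it are given as 1 of the 8 omissions of an array. Because it stood out by the very expression that was compared, an adjusted p without it depends on the outcome and supports no call.

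**Figure D1:**
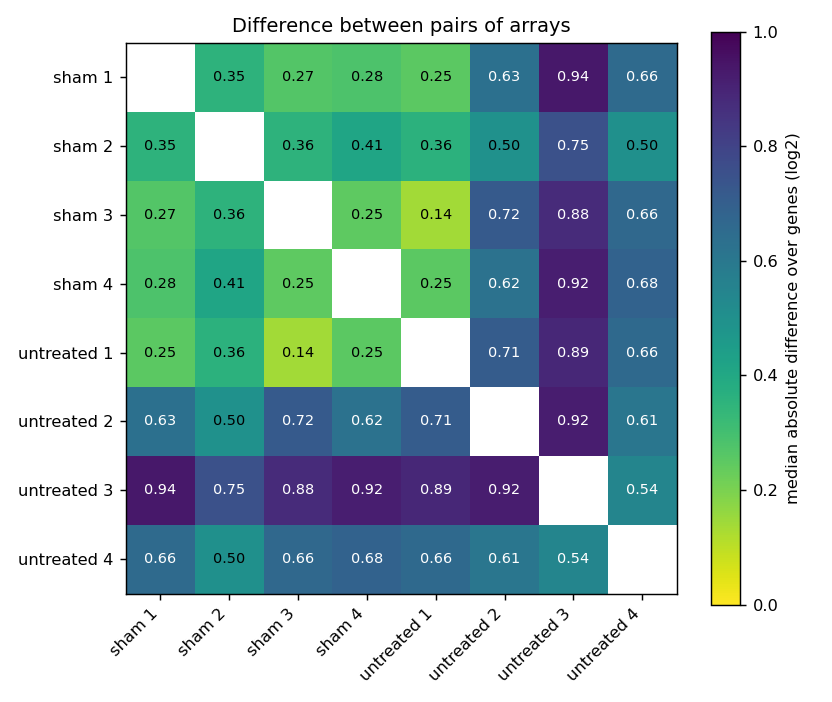
Median absolute difference in log2 level over 15232 genes for each pair of the 8 arrays, with arrays on both axes and darker colours for larger differences. Untreated array 1 sits in the pale block of the sham arrays, at 0.14 from sham array 3, and untreated arrays 2 to 4 stand apart from sham and from each other.

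Most blood markers fixed for the check of the tissue were well above background on every array. Cd3d and Cd3e (T cell receptor complex), Cd79a (B cells), S100a8, S100a9 and Csf3r (neutrophils), Csf1r (monocytes), Alas2 and Slc4a1 (red cells) and Pf4 and Gp9 (platelets) were so on 8 of 8 arrays. Ms4a1 (B cells) was so on 7, Ncr1 and Klrb1a (NK cells) were so on 6 each, and no probe was matched to Hba-a2 (red cells) or Itga2b (platelets). Krt5, Krt13 and Epcam, markers of squamous and other epithelium, were well above background on 0 of 8. Of the liver genes Alb was so on 2 arrays and Apoa1 and Ttr on 1 each.

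Untreated arrays 2 and 4 had high levels of a block of genes, several of which were not well above background on any sham array. Serping1, the inhibitor of the first complement component, had levels of -4.39, -5.09, -3.93 and -4.65 on the sham arrays, none of them well above background, and of -4.38, 6.39, -5.10 and 5.37 on untreated arrays 1 to 4. On untreated array 2 it was at least 951-fold and on untreated array 4 at least 470-fold above the sham arrays, while untreated arrays 1 and 3 were not well above background. C4a, a complement component, had sham levels of -0.81, -1.28, -1.08 and -1.60 and untreated levels of -1.20, 8.04, -0.55 and 6.39. C1qa, a chain of the complement recognition protein made by tissue macrophages, stood at 3.23 and 4.78 on arrays 2 and 4, at least 96.7-fold and at least 284-fold above sham. Msln, a surface protein of the mesothelium that lines body cavities, stood at 6.23 and 1.25, at least 843-fold and at least 26.7-fold above sham. Col3a1, a fibrillar collagen of connective tissue, stood at 4.75 and -0.29, at least 294-fold and at least 8.91-fold above sham.

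These genes belong to several cell types, and marker lists for them were written after the values had been seen, so they are a description. Of 13 complement genes on the array 8 or 9 were well above background on each sham array, 8 on untreated array 1, 12 on array 2, 9 on array 3 and 12 on array 4. Their summed linear level was 10.4 to 13.3 on the sham arrays, and 10.3, 601, 20.2 and 330 on untreated arrays 1 to 4. Of 13 genes of tissue-resident macrophages, 5 were well above background on each sham array and on untreated arrays 1 and 3, 13 on untreated array 2 and 10 on array 4. Among them were Cd163, a scavenger receptor, and Gata6, the transcription factor of macrophages of the peritoneal cavity, the latter at least 2.08-fold and at least 2.88-fold above sham on arrays 2 and 4. The summed level of this list was 3.24 to 4.88 on the sham arrays, and 3.88, 202, 3.80 and 185 on the untreated arrays. Of 16 mesothelial genes 2 to 4 were well above background on the sham arrays, and 1, 14, 6 and 8 on untreated arrays 1 to 4, with summed levels of 1.22 to 1.70 in sham and of 1.45, 122, 1.04 and 27.9 in the untreated arrays. The median deviation of these genes from the sham mean was 0.17, 4.28, -1.21 and 0.39 on untreated arrays 1 to 4. On array 4 Prg4, at a level of 4.54, made up most of the sum. Calb2 and Gpm6a of the mesothelial list were not well above background on any of the 8 arrays. Of 21 fibroblast genes 7 to 10 were well above background on the sham arrays and 8, 17, 8 and 12 on the untreated arrays, with summed levels of 25.7 to 38.6 and of 28.2, 324, 83.6 and 99.0. The median deviation of the fibroblast genes was 0.16, 3.95, -1.47 and 0.03 on untreated arrays 1 to 4. Bgn, at 6.01, and Fn1, at 3.94, made up most of the sum on array 3, and Fn1, at 6.19, on array 4. Lum, Pdgfrb and Postn of the fibroblast list, and C7 of the complement list, were not well above background on any of the 8 arrays. Of 10 genes of tissue mast cells 2 to 4 were well above background in sham and 3, 7, 4 and 7 in the untreated arrays, with summed levels of 0.99 to 2.20 and of 2.07, 4.61, 0.96 and 6.41, and Mcpt4, Fcer1a and Ms4a2 were not so on any of the 8 arrays. On the 12 arrays of drug-treated rats 8 to 11 complement, 5 to 8 macrophage, 1 to 7 mesothelial, 8 to 11 fibroblast and 2 to 9 mast cell genes were well above background, so the mast cell count reached above that of untreated arrays 2 and 4. How much the genes raised on arrays 2 and 4 shape the results below was not tested, nor was the source of their RNA. Without untreated arrays 2 and 4 the change shrank by more than 1.5 times, or turned, in 50 of the 82 named genes above 0. It did so in 15 of the 67 below 0, and the text gives such values for the genes it describes most fully. This omission leaves array 3 and the sham-like array 1, so a gene raised alike on arrays 2, 3 and 4 shrinks too. Atf6, with deviations from the sham mean of -0.38, 1.64, 1.27 and 1.44 on untreated arrays 1 to 4, is counted so. Some named genes were also chosen for lying far from sham on array 2 or 4. The count therefore does not measure how much the genes raised on arrays 2 and 4 shape the results.

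**Figure D2:**
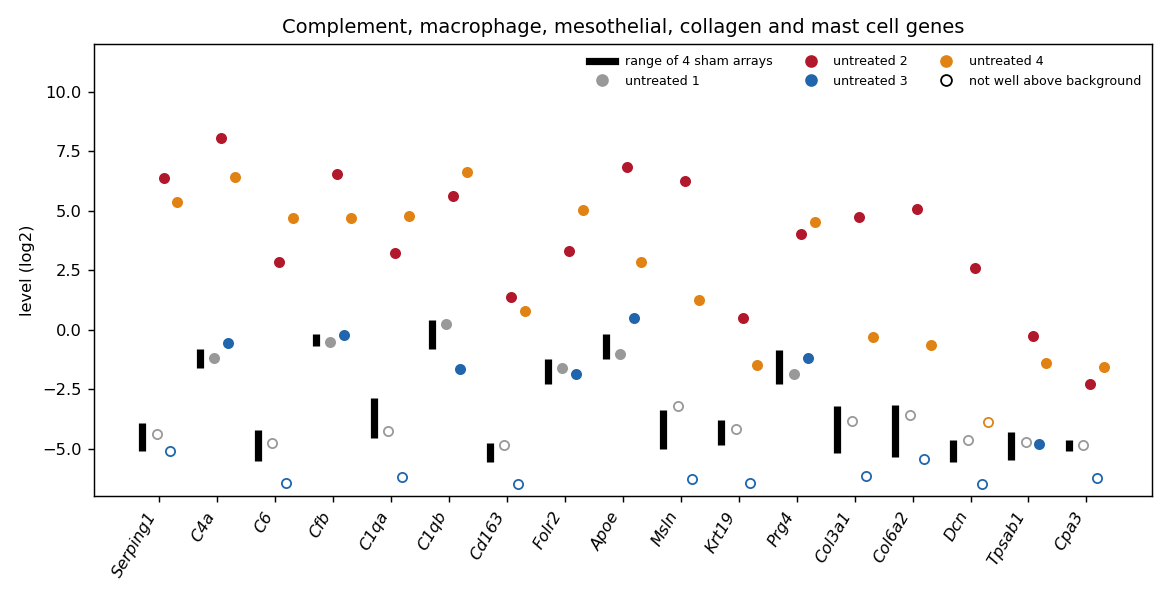
Levels (log2, relative to the 75th percentile of the array) of complement, macrophage, mesothelial, collagen and mast cell genes. Bars give the range of the 4 sham arrays, points the untreated arrays, and open points are not well above background. The points of untreated arrays 2 and 4 lie above the bars for each gene shown, such as Serping1 at 6.39 and 5.37, and those of arrays 1 and 3 lie near or below them, Apoe on array 3 being the farthest above.

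Of the 15232 genes 1 passed an adjusted p of 0.05 in limma, which is 0.00657%. Timmdc1, an assembly factor of respiratory complex I in the mitochondrial inner membrane, had levels of -1.65, -1.96, -2.20 and -2.53 on the sham arrays and of -3.25, -3.86, -3.98 and -3.32 on the untreated arrays. All 4 untreated arrays were below all 4 sham arrays, untreated array 1 included. Timmdc1 fell by 1.51 ± 0.23 (SE) on the log2 scale, with an adjusted p of 0.0423. The probe is dim: it was well above background on 3 sham and 2 untreated arrays. When each array in turn was left out, the change stayed between -1.66 and -1.37, and the adjusted p ran from 0.00242 (without untreated array 1) to 0.207 (without untreated array 3). It also passed without sham array 4, at 0.0285, and exceeded 0.05 when any other array was left out. The call was kept in 6 of 23 other settings, and in the other 17 the gene stayed lower but the adjusted p exceeded 0.05. Without untreated arrays 2 and 4 the change was -1.53. Of the 17 assembly factors of complex I tested, Timmdc1 included, 6 lay above 0 and 11 below, and the list's median change was -0.14 against -0.19 for all genes. Among the complex I subunits, Ndufa3 had a change of -0.79 ± 0.32, Ndufa12 of -1.38 ± 0.59 and Ndufa10 of 0.52 ± 0.25, with adjusted p values of 0.252, 0.262 and 0.274.

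Far more genes had small p values than passed. An unadjusted p below 0.05 was reached by 1242 higher genes (8.15%) and 1545 lower genes (10.1%). With limma on the 8 arrays alone 1592 genes (10.5%) reached it, against 2787 (18.3%) here, and the smallest adjusted p was 0.422. Of all genes 222 (1.46%) had all 4 untreated arrays above all 4 sham arrays, and 244 (1.6%) had all 4 below. Dividing 8 like arrays at random into 4 and 4 gives shares of about this size. Separated groups are therefore a description of a gene and no support for its change. The scaling set much of the balance: the median change of all genes was -0.19 here, -0.05 with each array centred on its median probe and 0.38 with spike-in scaling, and lower genes made up 60.4%, 39.6% and 3.94% of changes of 1 or more. Among these the genes with the smallest p were named, and none of them passed the threshold (adjusted p 0.242 for each).

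N4bp1, an endoribonuclease that restrains NF-kB signalling, had sham levels of -2.19, -2.04, -2.43 and -1.93 and untreated levels of -1.54, -0.52, 0.16 and -0.65, a change of 1.51 ± 0.30. Untreated array 1 lay just above the highest sham array and the other 3 lay clearly above. Prok2, a secreted peptide made by neutrophils, had sham levels of -2.85, -2.50, -1.88 and -2.38 and untreated levels of -1.68, 1.11, 1.31 and 0.09, a change of 2.61 ± 0.58. Dusp16, a phosphatase that acts on JNK kinases, had sham levels of -2.20, -1.96, -1.65 and -1.61 and untreated levels of -1.44, -0.68, 0.13 and -0.46, a change of 1.24 ± 0.29. Wdfy1, an adaptor of Toll-like receptors, had a change of 1.48 ± 0.32, and Smad1, a transcription factor of BMP signalling, of 1.59 ± 0.39. Slc38a7, a lysosomal glutamine transporter, had a change of 1.62 ± 0.35. Hoxb4, a homeobox gene of blood stem cells that lost its direction under another background correction, was not well above background on any sham array and was at least 1.43-fold higher in the untreated arrays. Vcan, a proteoglycan abundant in monocytes, had sham levels of -2.28, -1.88, -1.65 and -1.44 and untreated levels of -1.20, 1.85, 0.21 and 0.13, and a second Vcan probe gave a change of 1.74 against 2.06 for the probe used.

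Other genes with separated groups owed their size to arrays 2 and 4. Slpi-ps1 had sham levels of 0.40 to 0.55 and untreated levels of 0.71, 4.73, 1.33 and 5.03. Its change was 2.47 ± 0.71 with all arrays and 0.54 without arrays 2 and 4. Hk3, the hexokinase of myeloid cells, had a change of 2.85 ± 0.79, with untreated levels of -2.08, 0.73, -1.46 and 3.36 and a change of 0.95 without the 2 arrays. Sdc1, a proteoglycan of plasma cells and epithelia, had untreated levels of -2.10, 1.80, -2.0 and 0.92, and its change of 2.45 ± 0.73 was 0.75 without them. Tnks1bp1, a binding partner of tankyrase, differed by 2.02 ± 0.50 and by 1.16 without them. For Prok2, N4bp1 and Dusp16 the change without arrays 2 and 4 was 2.22, 1.45 and 1.20.

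Among the lower genes with separated groups, Sertad3, a transcriptional co-regulator, had sham levels of 3.48, 3.11, 2.90 and 3.25 and untreated levels of 2.61, 0.83, 1.63 and 1.85, a change of -1.45 ± 0.39. Rbm38, an RNA-binding protein abundant in maturing red cells, had sham levels of 10.21, 9.64, 9.32 and 10.13 and untreated levels of 9.24, 8.58, 8.08 and 8.35, a change of -1.26 ± 0.37. Dcaf8, a substrate receptor of a ubiquitin ligase, differed by -1.34 ± 0.40, Agap3 by -1.09 ± 0.30 and Usp31, a deubiquitinase, by -1.07 ± 0.30, with -0.51 on a second, dim Usp31 probe. Nup35, a nucleoporin, and Rangrf, a Ran-binding protein, differed by -0.86 ± 0.26 and -0.87 ± 0.26. Cdca2, a mitotic chromatin protein, had sham levels of -1.68 to -2.89 and untreated levels of -3.59, -2.91, -5.43 and -3.80, a change of -1.77 ± 0.50, with the groups nearly touching. Among the largest lower changes with separated groups, Arl4a, Cmpk2 and Lpin2 were lowest on untreated arrays 3 and 4, Gpr4 was far lowest on array 3, and Herc6 was over 1 below the sham mean on all 4 untreated arrays. Arl4a, a small GTPase, had untreated levels of 0.17, -0.32, -4.46 and -2.57 against a sham mean of 0.47. Gpr4, a proton-sensing receptor, had untreated levels of 2.10, 1.44, -2.56 and 0.77 against a sham mean of 2.68. Cmpk2, a mitochondrial nucleotide kinase induced by interferon, had sham levels of 5.86, 5.43, 4.82 and 5.64 and untreated levels of 4.80, 4.56, 2.09 and 2.32, with array 1 just below the lowest sham array. Herc6, an interferon-induced ligase, and Lpin2, a phosphatidate phosphatase, differed by -1.79 ± 0.54 and -1.74 ± 0.56.

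**Figure D3:**
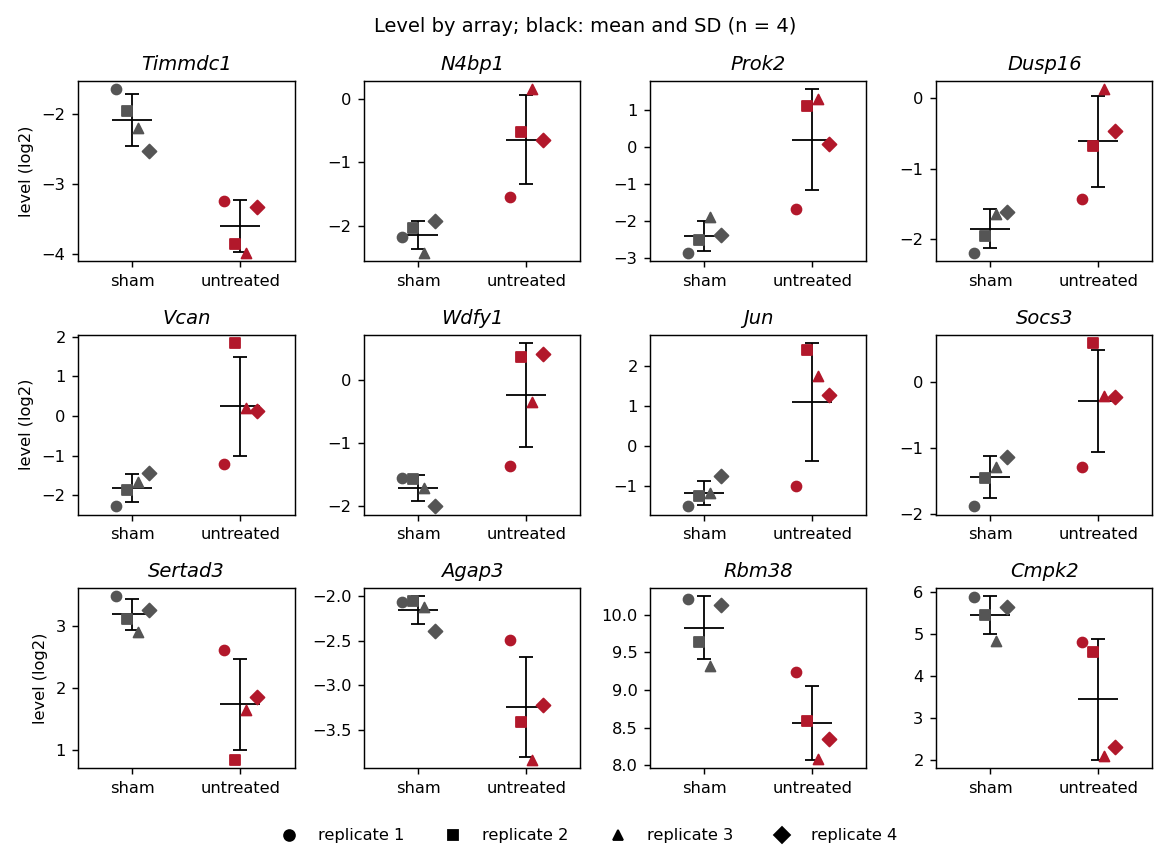
Levels (log2) of 12 genes on the 4 sham and 4 untreated arrays, with mean and SD (n = 4) in black, replicate numbers as symbols, and a vertical axis of its own in each panel. Timmdc1, from -1.65 to -2.53 in sham and -3.25 to -3.98 in untreated, is separated on every array, while in Jun and Socs3 untreated array 1 (circle) lies among the sham arrays.

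Mean changes of 1 log2 unit or more were found for 651 higher genes (4.27% of those tested) and 991 lower genes (6.51%), and most of them rested on particular arrays. Of the 651 higher genes 5 were over 1 above the sham mean on all 4 untreated arrays, 268 on 3, 335 on 2 and 43 on 1. The commonest patterns were arrays 2, 3 and 4 together, with 247 genes, and arrays 2 and 4 without the others, with 190. Of the 991 lower genes 5 were over 1 below the sham mean on all 4 untreated arrays, 191 on 3, 738 on 2 and 57 on 1. Here 639 genes, 64.5%, were lower on arrays 3 and 4 without the others, and 163 on arrays 2, 3 and 4. Untreated array 1 was over 1 from the sham mean in 32 of the higher and 46 of the lower genes. When each array was left out in turn, 208 of the 651 and 179 of the 991 kept a change of 1 or more in all 8 omissions. In 293 higher and 602 lower genes at least 1 omission shrank the change by more than 1.5 times.

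**Figure D4:**
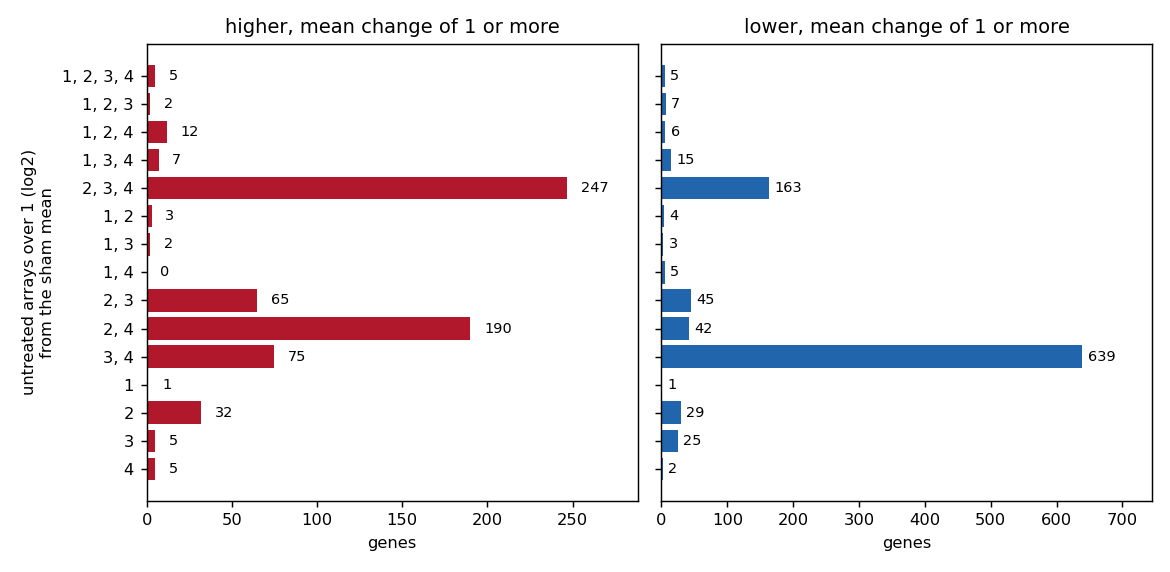
Number of genes (horizontal axis) with a mean change of 1 or more by the untreated arrays that were over 1 log2 unit from the sham mean in the direction of the change (vertical axis), for 651 higher genes on the left and 991 lower genes on the right, each with a horizontal scale of its own. Higher genes concentrate on arrays 2, 3 and 4 (247) and on arrays 2 and 4 (190), lower genes on arrays 3 and 4 (639).

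Genes were then read by the lists of cell types and pathways. To score a list on an array, the deviation from the sham mean was taken for each of its tested genes, and the median over all genes was subtracted from the list's own median. No list was tested. For reading the counts, 37.9% of all genes had a change above 0, the median change of all genes was -0.19, and without untreated array 1 5.85% of the genes passed as higher and 6.18% as lower. The largest list score of untreated array 1 was 0.37 in size, against 0.52 to 1.27 on the sham arrays and 2.80, 1.97 and 1.83 on untreated arrays 2, 3 and 4.

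Genes of mature neutrophils, the first phagocytes to be recruited from blood, were higher: 22 of 25 had a change above 0, with a median of 1.02. The list scored -0.03, 2.33, 1.06 and 0.94 on untreated arrays 1 to 4 and -0.46 to 0.34 on the sham arrays. Relative to all genes its median was 1.21, 1.60 without untreated array 1 and 0.51 without arrays 2 and 4. C5ar1, the receptor for the complement fragment C5a, had sham levels of 0.86, 1.60, 1.22 and 1.44 and untreated levels of 1.28, 3.20, 3.14 and 3.04. Untreated arrays 2 to 4 were alike and far above sham, array 1 was not, and the change of 1.39 ± 0.38 had an adjusted p of 0.242. With 1 array left out the adjusted p ran from 0.00392 (without untreated array 1) to 0.463 (without untreated array 4). Itgam, the integrin chain of neutrophils and monocytes, had sham levels of 1.17, 1.15, 1.11 and 0.61 and untreated levels of 1.15, 4.27, 1.70 and 3.20, highest on arrays 2 and 4. Its change of 1.57 ± 0.48 was 0.41 without these. Plaur, the urokinase receptor, differed by 1.32 ± 0.42 on the probe used and by 0.23 on another probe. Granule and precursor genes, expressed in the bone marrow, did not move together: 6 of 13 were higher, and the list scored 0.25, 1.13, -0.57 and 0.13. RatNP-3b, a neutrophil defensin, had a change of 1.10 ± 0.32 with separated groups, but it belongs to a family of near-identical genes and its other probe had a change of 0.0047, so its value is uncertain. Ms4a3 differed by -1.04 ± 0.42 and Chi3l1 by 0.70 ± 0.48.

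The phagocyte NADPH oxidase, the enzyme of the respiratory burst, was higher in 9 of 11 members with a median of 0.59, scoring 1.20, 0.92 and 1.15 on arrays 2 to 4. Ncf1, its organizer subunit, had sham levels of 3.20, 3.44, 3.53 and 3.57 and untreated levels of 3.54, 5.38, 4.47 and 5.55, a change of 1.30 ± 0.34. Cyba differed by 0.95 ± 0.35 and Ncf4 by 0.78 ± 0.33. Without arrays 2 and 4 the changes of Ncf1, Cyba and Ncf4 were 0.57, 0.36 and 0.38, and the list's median relative to all genes was 0.40 against 0.78. Monocyte genes had 15 of 24 members above 0 and a median change of 0.45, among them Lgals3, a lectin of monocytes and macrophages, with 1.26 ± 0.45, and lower Cd300e with -1.10 ± 0.40. Relative to all genes their median of 0.65 was 0.14 without arrays 2 and 4, and Lgals3 was at 0.48. Genes of antigen presentation and dendritic cells split by array, with scores of -0.98, 0.96 and 1.83 on arrays 2 to 4, and 12 of 17 lay above 0 (median change 0.34). Clec10a, a lectin of dendritic cells and macrophages, had untreated levels of -2.71, 0.64, -0.92 and 2.98 and a change of 2.07 ± 0.82, Flt3 of 0.94 ± 0.34 and Zbtb46 of -1.25 ± 0.48. Without arrays 2 and 4 the changes of Clec10a and Flt3 were 0.26 and 0.43.

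Lymphocyte genes were lower, and array 2 accounted for much of it. T cell genes had 24 of 26 members below 0 and a median change of -0.82, and scored -0.00081, -2.80, 0.30 and -0.43 on untreated arrays 1 to 4. B cell genes had 21 of 23 members below 0 and a median change of -0.77, and scored 0.14, -2.74, 0.56 and -0.57. Relative to all genes the medians of -0.63 and -0.57 became 0.14 and 0.46 without arrays 2 and 4. Lck, the kinase at the T cell receptor, had sham levels of 0.64, 0.94, 0.50 and 0.46 and untreated levels of 0.70, -3.11, -0.49 and -0.78. Its change was -1.56 ± 0.50, with array 2 far lowest. Cd3g, a chain of the T cell receptor complex, had sham levels of 4.11, 4.93, 3.94 and 3.73 and untreated levels of 3.98, 0.92, 2.69 and 2.82. Ccr7, the homing receptor of naive T cells, had sham levels of -0.25, 1.06, 0.37 and -0.11 and untreated levels of 0.54, -2.64, -1.56 and -2.28, low on all of arrays 2 to 4. Its change of -1.75 ± 0.49 had an adjusted p of 0.242. With 1 array left out the adjusted p ran from 0.00241 (without untreated array 1) to 0.463 (without untreated array 4). The B cell genes Cd72, Blk and Ms4a1 differed by -1.80 ± 0.58, -1.54 ± 0.56 and -1.23 ± 0.56, each lowest on array 2. Without arrays 2 and 4 the changes of Lck, Cd3g and Ccr7 were -0.53, -0.84 and -0.78, and those of Cd72, Blk and Ms4a1 were -0.55, -0.26 and -0.14. Of NK and cytotoxic genes 14 of 19 lay below 0 (median change -0.34), and sham array 1 scored 1.27 on this list, more than any untreated array. S1pr5, Klrd1 and Klrk1 of this list differed by -1.10 ± 0.43, -1.03 ± 0.58 and -0.48 ± 0.22, with -0.87 on a second Klrk1 probe. Plasma cell genes had 6 of 10 members above 0 and a median change of 0.49, with Sdc1 as above and Xbp1 at 0.76 ± 0.32, which was 0.26 without arrays 2 and 4. Prdm1 was not well above background on any sham array and was so on 2 untreated arrays. Genes of eosinophils, basophils and mast cells had 5 of 11 members above 0 and a median change of -0.08. Cd200r1, an inhibitory receptor of basophils and other myeloid cells, had separated groups, sham levels of -2.43 to -1.87 against -1.66, -0.30, -1.49 and 0.19, Csf2rb was at least 1.53-fold higher, also with separated groups, and Tpsab1, a mast cell tryptase, at least 1.64-fold, with levels of -0.27 and -1.39 on arrays 2 and 4.

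Red cell genes were lower on arrays 3 and 4. Of 39 tested 37 were lower with a median of -1.07, and the list scored -0.08, 0.07, -1.97 and -1.76 on untreated arrays 1 to 4. The median relative to all genes, -0.88, was -1.10 without arrays 2 and 4. Klf1, the master transcription factor of red cells, had sham levels of 5.99, 5.54, 5.07 and 5.99 and untreated levels of 5.14, 4.65, 3.28 and 3.73, a change of -1.45 ± 0.47. Epb42, a protein of the red cell membrane skeleton, had untreated levels of 4.65, 3.93, 1.96 and 2.32 against a sham mean of 4.81, and Trim58, a ligase of maturing red cells, of 3.21, 2.13, 0.42 and 0.95 against 3.24. The heme and iron list was mixed, 13 higher and 12 lower of 25 with a median of 0.10, with Ncoa4, the receptor for ferritin breakdown, at -1.65 ± 0.62, and Alas1 and Steap4, an iron reductase, at 0.83 ± 0.26 and 1.41 ± 0.48. The other Steap4 probes gave 1.69 and -0.34. Platelet genes had 21 of 25 members above 0 and a median change of 0.52 and scored -0.02, 1.23, 1.35 and 0.09. Selp, the adhesion molecule P-selectin, broke this pattern with untreated levels of -1.0, 3.33, 0.14 and 4.17 against sham levels of -1.06 to -0.91. Its change of 2.67 ± 0.76 was 0.58 without arrays 2 and 4, and the changes of Tbxas1 and Ltbp1, 1.35 ± 0.49 and 1.48 ± 0.49, were 0.27 and 0.94. Without untreated array 4 alone Tbxas1 was at 0.85. The median of the platelet list relative to all genes was 0.72, and 0.64 without arrays 2 and 4.

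**Figure D5:**
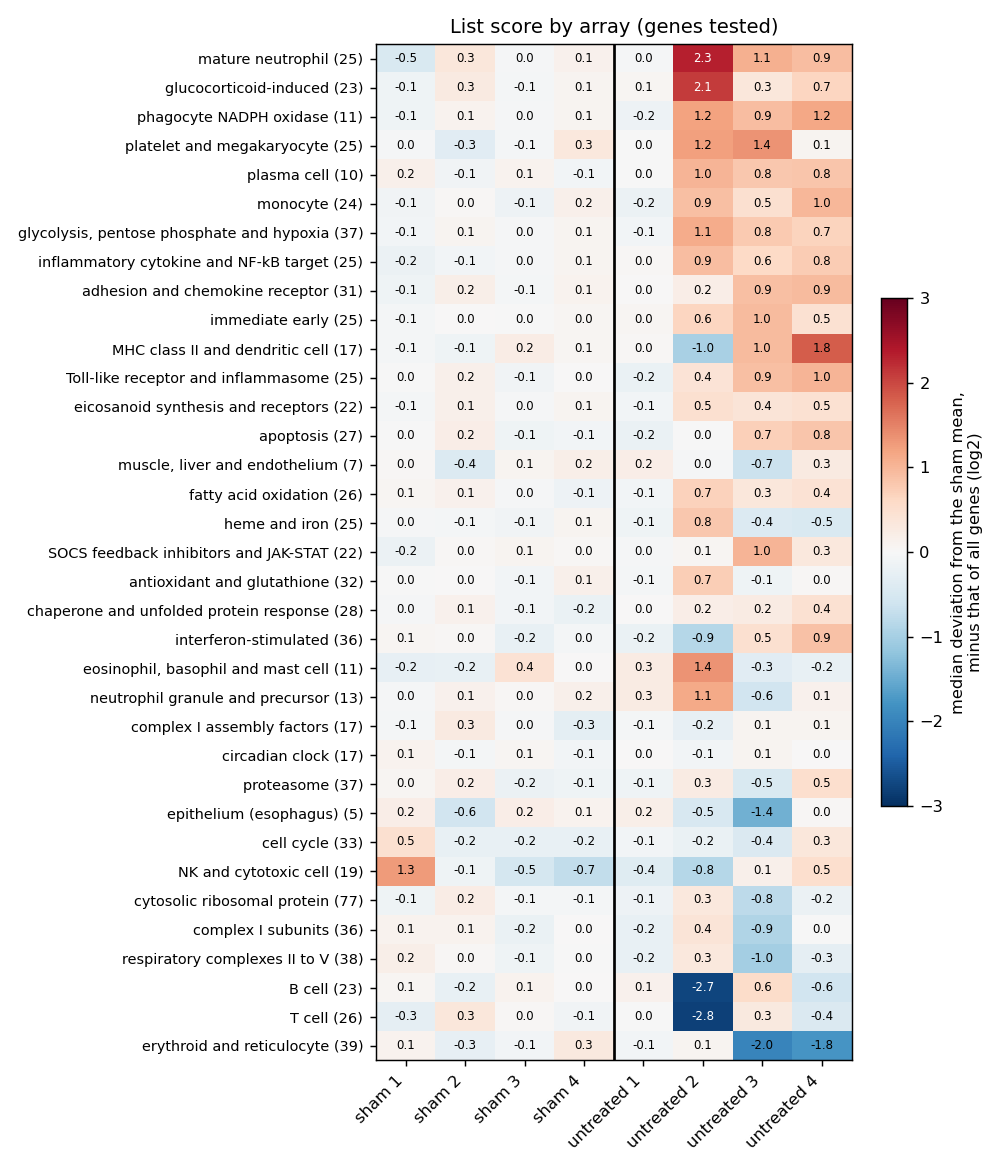
List scores (log2, colour and numbers) of 35 gene lists, in rows ordered by their median change with the number of tested genes in parentheses, on the 4 sham and 4 untreated arrays in columns. Untreated array 1 is as pale as sham, array 2 is high for neutrophil genes (2.33) and low for T cell (-2.80) and B cell genes (-2.74), and arrays 3 and 4 are low for red cell genes (-1.97 and -1.76).

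More immediate early and inflammatory genes lay above 0 than below, and none of them passed the test. Of the immediate early list 19 of 25 lay above 0 (median change 0.34), and the list scored 0.05, 0.64, 0.96 and 0.46 on untreated arrays 1 to 4. Jun, a subunit of the AP-1 transcription factor, had sham levels of -1.51, -1.26, -1.18 and -0.76 and untreated levels of -1.0, 2.41, 1.74 and 1.26. The change of 2.28 ± 0.48 had an adjusted p of 0.242 with all arrays, and it was 1.55 without arrays 2 and 4. Junb differed by 1.08 ± 0.33, and Gadd45b, a stress sensor, by 1.01 ± 0.28 with separated groups. Of cytokines and NF-kB targets 19 of 25 lay above 0 (median change 0.37). Tnf had sham levels of -0.93, -0.13, -0.83 and -0.78 and untreated levels of -0.96, 2.17, 1.12 and 0.56, a change of 1.39 ± 0.46, which was 0.74 without arrays 2 and 4. Tnfaip2 was not well above background in sham and at least 3.07-fold higher in the untreated arrays, of which 3 were above background, and Icam1, an adhesion molecule, differed by 1.13 ± 0.41, of which 0.18 was left without arrays 2 and 4. Of JAK-STAT genes and their SOCS inhibitors 12 of 22 lay above 0 (median change 0.05). Socs3, the feedback inhibitor of interleukin 6 signalling, had sham levels of -1.88, -1.46, -1.28 and -1.13 and untreated levels of -1.28, 0.60, -0.22 and -0.22, a change of 1.16 ± 0.32, which was 0.69 without arrays 2 and 4. Stat3, which acts upstream of it, differed by 1.09 ± 0.33 and Il4r by -0.53 ± 0.22, with 0.33 on a second Il4r probe. Toll-like receptor and inflammasome genes had 20 of 25 members above 0 and a median change of 0.33, among them Tlr2 at 1.07 ± 0.41 (0.47 without arrays 2 and 4), Tlr7 at least 1.10-fold higher, and lower Irak1 at -1.25 ± 0.48. Adhesion molecules and chemokine receptors had a median of 0.36, 19 of the 31 lying above 0, including Itga5, at least 1.99-fold higher.

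Interferon-stimulated genes went both ways, 17 higher and 19 lower of 36 with a median of -0.04, and scored -0.86, 0.49 and 0.87 on arrays 2 to 4. Against Cmpk2 and Herc6, named above, stood Ifitm3, a membrane protein that blocks virus entry. It was at least 4.81-fold higher in the untreated arrays, of which 3 were above background, with levels of 1.75 and 0.01 on arrays 2 and 4 and of -2.97 and -3.75 on arrays 1 and 3, against -4.37 to -3.37 in sham. Eicosanoid genes had 12 of 22 members above 0 and a median change of 0.30. Alox5, the first enzyme of leukotriene synthesis, had sham levels of -2.77 to -1.70 and untreated levels of -2.29, 0.06, -0.77 and 0.65, and its change of 1.61 was 0.67 without arrays 2 and 4. Pla2g7 differed by 1.24 ± 0.42 and Pla2g2f by -1.31 ± 0.32. Apoptosis genes had 16 of 27 members above 0 and a median change of 0.25, with Tnfrsf1a, the TNF receptor, at 1.07 ± 0.39 and Birc5 at -1.30 ± 0.46. Xiap was at least 1.65-fold higher on the probe used, and its other probe had a change of 0.14.

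Glucocorticoid-induced genes had 17 of 23 members above 0 and a median change of 0.70 and scored 0.05, 2.10, 0.33 and 0.66. Fkbp5, a chaperone of the glucocorticoid receptor, had sham levels of 0.19, 0.84, 0.22 and 0.22 and untreated levels of 0.13, 2.91, 1.90 and 1.23, and its change of 1.18 was 0.65 without arrays 2 and 4. Cebpd, a transcription factor of the acute phase, differed by 1.27 ± 0.44. Thbd, thrombomodulin, had untreated levels of -3.10, 0.91, -2.06 and 0.45 and a change of 2.83 ± 0.65, which was 1.20 without arrays 2 and 4. Relative to all genes the list median of 0.90 was 0.30 without these arrays. Circadian clock genes stayed near the median of all genes, 5 of 17 higher with a median of -0.24 and list scores of -0.09 to 0.09. Within them Clock and Bhlhe40 had separated groups, at least 1.34-fold and at least 2.36-fold higher.

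Metabolic genes divided. Genes of glycolysis, the pentose phosphate route and hypoxia had 25 of 37 members above 0 and a median change of 0.45, scored 1.12, 0.78 and 0.67 on arrays 2 to 4, and had 14 higher calls and 0 lower without untreated array 1. Slc2a1, a glucose transporter, had sham levels of 0.04, 0.07, 0.00 and -0.24 and untreated levels of 0.13, 1.43, 0.67 and 1.23, with separated groups and a change of 0.89 ± 0.29, which was 0.43 without arrays 2 and 4. Hk2 was at least 1.24-fold higher. Complex I subunits had 26 of 36 members below 0 and a median change of -0.41, and those of complexes II to V had 28 of 38 below 0 and a median change of -0.52. On untreated arrays 1 to 4 the lists scored -0.22, 0.38, -0.90 and -0.01, and -0.23, 0.32, -1.03 and -0.27. Both were thus lowest on array 3 and above 0 on array 2. Relative to all genes their medians of -0.21 and -0.33 became 0.008 and -0.08 without untreated array 3. Atp5f1b, a subunit of ATP synthase, had untreated levels of 4.13, 4.50, 1.15 and 2.25 against a sham mean of 4.57. Atp5f1c differed by -0.62 ± 0.24 with separated groups and Cox6a1 by -0.95 ± 0.40. Fatty acid oxidation genes had 18 of 26 members above 0 and a median change of 0.10, with Acaa1a at 0.71 ± 0.28, Cpt2 at 0.72 ± 0.27 and Slc25a20 at -1.45 ± 0.55. Antioxidant genes had 18 of 32 members above 0 and a median change of 0.04. Among them catalase (Cat) had sham levels of 4.20 to 4.82 and untreated levels of 4.20, 4.15, 1.56 and 2.77, with array 1 touching the sham range, Txn2 differed by -1.67 ± 0.58 and Gsr, glutathione reductase, by 1.22 ± 0.37.

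Ribosomal protein genes were lower in 71 of 77, but their median of -0.37 lay only 0.17 below that of all genes, with Rpl5 at -1.0 ± 0.37, Rps23 at -0.63 ± 0.26 and Rps6 at -0.62 ± 0.30, with -0.28 on a second Rps6 probe. These genes have many processed copies that can share signal. Proteasome genes had 24 of 37 members below 0 and a median change of -0.24, with Psmd8 at -1.15 ± 0.44, Psmd4 at -0.89 ± 0.39 and Psmd1 at 0.52 ± 0.23. Chaperone and unfolded protein response genes had 13 of 28 members above 0 and a median change of -0.02. Pdia4, a chaperone of the endoplasmic reticulum, had separated groups and was at least 1.89-fold higher, and Atf6, a sensor of misfolded protein, and Trib3 differed by 0.99 ± 0.33 and 0.74 ± 0.27. A second Atf6 probe gave 0.38, and without arrays 2 and 4 the change of Atf6 was 0.44. Cell cycle genes had 27 of 33 members below 0 and a median change of -0.33, with Cdc20 at -1.59 ± 0.50 and Aurkb at -1.38 ± 0.45, and Cdk6 was at least 1.76-fold higher. Relative to all genes the median of the cell cycle list was -0.14. It turned to 0.098 without sham array 1, which scored 0.49 on this list. With normexp background correction the changes of Cdk6, Clock, Prdm1, Tlr7 and Dsg3, all dim and none well above background in sham, turned to between -0.17 and -0.012. Dmac2 and Tmem126b of the complex I assembly list differed by -0.61 ± 0.21 and -0.47 ± 0.25. Of the esophageal epithelium list only 5 of 15 genes on the array were tested, with a median of -0.33, Krt4 at -0.95 ± 0.40 and Sprr1a at -0.72 ± 0.44, and Dsg3 was at least 1.52-fold higher. Of the list of muscle, liver and endothelium 7 of 22 were tested, with a median of 0.14, Acta2 at -0.82 ± 0.40 and Kdr, an endothelial receptor, at 1.53 ± 0.58 with its highest levels on arrays 3 and 4.

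Each untreated array was also read alone against the range of the sham arrays. Genes over 1 above the sham mean and above all sham arrays numbered 176 on array 1, 1551 on array 2, 1914 on array 3 and 1294 on array 4, and genes below by the same rule 101, 2098, 4604 and 2319. Held against only the other 3 sham arrays, a less strict rule, a sham array gave 186 to 324 higher and 233 to 765 lower. On array 1 the genes farthest above sham were Mcam, Adh4, Tubgcp6 and Lamb2, at least 5.33-fold to at least 7.00-fold higher, and among those farthest below were Bmp2k, Oas1i and Ppp1r13b, by 1.34 to 1.52 on the log2 scale, and Cdca2, not well above background there and at least 2.17-fold lower. On array 2 the farthest above were Serping1, Msln, C4a and Col6a2. The farthest below on array 2 were Pde6h, Ell3, Srpk3 and Lrrc23, none of them well above background on array 2 and each well above background on the 4 sham and the other 3 untreated arrays, at least 9.40-fold to at least 25.7-fold lower. On array 3 Chrm3, the M3 muscarinic receptor, was at least 11.1-fold and Mepe at least 6.11-fold higher, and Prok2 and Tyro3, a receptor kinase, were 3.71 and 3.69 above sham on the log2 scale. Gpr4, Gstm5, Arl4a and Clic2 were lowest there, the last 3 at least 28.0-fold lower. On array 4 Serping1, C6, C1qa and C4a were farthest above. Ly49i9, a receptor of NK cells from a family of near-identical genes, was at least 27.1-fold lower on array 4, against levels of -0.18, 0.22 and 0.95 on arrays 1 to 3, and Chn1, Otub2 and Apol2 were the next.

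The count of calls depended on untreated array 1, which resembled sham in the measure tested. Without it 1832 genes passed, 891 higher (5.85%) and 941 lower (6.18%). Without any one of the other 7 arrays 0 or 1 gene passed. The 1 gene was Timmdc1 without sham array 4, and another gene, also lower, without sham array 2. Removing arrays 2 and 4 together, a step chosen after the data had been seen, left 0. Of the 149 named genes 103 passed without array 1, among them 24 of the 25 with separated groups that were named for small p or large change, Gpr4 being the exception with an adjusted p of 0.0581. Named genes were picked from these same arrays, so this tally is no support for them. Beside these shares of all genes, 9 of 25 mature neutrophil, 5 of 11 oxidase, 6 of 24 monocyte, 7 of 25 cytokine, 8 of 31 adhesion and 6 of 23 glucocorticoid-induced genes passed as higher, and 9 of 26 T cell, 8 of 39 red cell and 3 of 23 B cell genes as lower. Ribosomal genes had 2 lower calls of 77, and the subunits of complex I and of complexes II to V had 0 in either direction. These shares describe 3 arrays left after an omission that rests on the outcome. Of these, arrays 3 and 4 had a 75th percentile above the sham range. Arrays 2 and 4 had the raised complement and macrophage genes, and array 2 also the mesothelial and fibroblast genes.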

How the data were processed

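Whole-blood RNA of 20 Wistar rats was hybridised, 1 sample per array, to 1-colour Agilent rat arrays. The deposited intensity values were made with Agilent Feature Extraction 10.7.3.1, which subtracted background and detrended each array, per the file headers. The authors' deposited value table holds ratio values, each spot over its array's median (column medians 1.0), with processing not given in the sources used here; its sham and untreated columns matched their scanner files, while the columns of the STW5 doses matched the other dose. Groups came from the sample titles, and replicates are separate animals per the design text.

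Of 62976 spots 58717 were non-control, and 0 were saturated. Spots of a probe were averaged without outlier spots, and log2 levels were taken relative to each array's 75th percentile. A probe was tested if well above background in at least 0.5 of its spots on 4 or more of the 20 arrays, and a gene was its brightest such probe. Of 30367 probes 18384 were named by accession, 2482 by symbol and 526 by synonym through RefSeq tables, and 8975 kept the file's name. limma 3.58.1 (R 4.3.3) fitted 5 group means over 20 arrays (lmFit, eBayes, 15 residual degrees of freedom), two-sided, with Benjamini-Hochberg adjustment over 15232 genes and a threshold of 0.05. The script was tested on simulated data. "At least" folds set the brighter group's mean against the higher, on each dim array, of the lowest signal well above background and the probe's own. Named genes are all that passed, the 8 per direction with the smallest p and the 6 with the largest change among genes with separated groups that were well above background on all arrays of the higher group, the 3 with the smallest p of each of 35 lists, and the 4 per direction farthest from sham on each untreated array. Genes and lists were chosen with earlier results of these data known. Alternatives changed scaling, background, filter, probe choice, samples, weights and covariates. Results of some genes that these rules and lists hold are not reported here.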

Additional observations from a re-analysis of the deposited data

Results flagged for a closer look

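Dixon's ratio was taken in 368 groups of 4 arrays (named genes and list scores, sham and untreated apart). In 18 of them, or 4.89%, 1 array lay farther from the others than the critical value. Chance flags about 1 in 20 unselected groups. The named genes were picked from these same values, so these shares cannot be compared. In the untreated group array 1 stood alone as the lowest for C5ar1 (level 1.28), Cpt2 (-2.18) and Itga5 (-3.38, not well above background) and for the eicosanoid list score (-0.077), while arrays 2 to 4 lay close together. Untreated array 2 stood alone for Lrrc23 (-5.71) and untreated array 4 for Ly49i9 (-5.91), each named for lying far below sham on that very array.

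In the sham group array 3 was the lowest for Dcaf8 (0.10), Oas1i (-2.12), Otub2 (2.70) and Ppp1r13b (1.37) and the highest for Srpk3 (0.32). Sham array 1 was the lowest for Dmac2 (-1.11) and Junb (1.94) and the highest for the cell cycle list score (0.49). Sham array 2 was the highest for Fkbp5 (0.84) and the lowest for Sprr1a (-3.33) and for the esophageal epithelium list score (-0.58). Sham array 4 was the lowest for Itgam (0.61).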

How the results depend on the processing

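The count of 1 gene past the threshold became 0 with quantile normalization, median scaling, spike-in scaling, normexp, no filter on dim probes, a filter on all 8 arrays, the 8 arrays alone, an intensity trend, the 75th percentile as a covariate, and without untreated arrays 2 and 4. It became 3 with every probe tested by itself and 580 (369 higher, 211 lower) with array weights, and ran from 0 to 1832 when 1 array was left out. Unadjusted p values below 0.05 numbered 1358 to 5746 over the same settings. With the replicate number as a block 0 genes passed; the numbers do not pair the arrays, as the same-numbered arrays deviated with correlations of 0.07, -0.09, 0.01 and -0.16. Genes with separated groups, 222 higher and 244 lower, became 110 and 383 with median scaling, 494 and 3 with spike-in scaling and 134 and 414 in the deposited value table. The higher count was 145 with normexp and 138 with the filter on all 8 arrays, and the lower count 406 with no filter. Without arrays 2 and 4 they were 822 and 839, and with 1 array left out 269 to 1481 and 299 to 2572. Changes of 1 or more, 651 higher and 991 lower, became 2563 and 105 with spike-in scaling and 293 and 162 with normexp. The higher count was 293 with the filter on all 8 arrays, 361 without arrays 2 and 4 and 556 to 1136 with 1 array left out. The lower count was 620 with quantile normalization, 608 with median scaling, 1921 with no filter, 1658 with array weights, 270 with the covariate and 460 to 2585 with 1 array left out. Lower genes made up 41.6%, 35.6% and 51.8% of these changes with quantile normalization, normexp and the value table. Beside untested list medians, 37 values of 25 named genes turned sign, and the cause was not tested beyond the arrays left out. These were Il4r 0.046, Klrk1 0.094 and Tmem126b 0.099 with spike-in scaling. With normexp they were Adh4 -0.063, Cdk6 -0.012, Clock -0.066, Dsg3 -0.059, Hoxb4 -0.061, Prdm1 -0.17 and Tlr7 -0.051, all dim. Tubgcp6 was -1.43 with no filter. Bmp2k was -0.035 as the mean of its probes, -0.081 with the covariate, -0.29 without arrays 2 and 4, and between -0.23 (without sham array 3) and 0.67 with 1 array left out, also below 0 without untreated array 2 (-0.098) or 3 (-0.15). The covariate turned Apol2 to 0.32 and Sprr1a to 0.042. With 1 array left out, Adh4 ran from -0.68 (without untreated array 1) to 1.08, Tubgcp6 from -0.012 (array 1) to 1.62, Ell3 from -1.88 to 0.033 (array 2), Lrrc23 from -1.74 to 0.019 (array 2), Pde6h from -2.04 to 0.061 (array 2), Srpk3 from -1.78 to 0.28 (array 2) and Ly49i9 from -2.23 to 0.063 (array 4). Without arrays 2 and 4 C1qa was -1.26, C6 -0.80, Col3a1 -0.78, Col6a2 -0.48, Msln -0.29, Serping1 -0.22, Ell3 0.51, Lrrc23 0.21, Ly49i9 0.12, Pde6h 0.26 and Srpk3 0.61. For dim probes, signal over background limits what can be read.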
